A study of Homo sapiens with 4 samples.

Results

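Filamins and plakins are very long proteins that tie the cytoskeleton together, and 9 of their genes were followed in the human hepatocellular carcinoma (HCC) cell line MHCC97H with and without knockdown of UBXN1. The 9 genes were the filamin genes FLNA and FLNC and the plakin genes EPPK1, PLEC, DSP, DST, MACF1, PPL and EVPL, out of 61541 genes in the expression table and 16863 genes that were tested. All 9 passed the filter on low counts. EPPK1 and FLNC were chosen by their large rises in shUBXN1 over shCon, the same contrast as below, so their values are given as a description without a test, whereas the other 7 were listed by family and were tested.

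The 4 RNA-seq libraries were all made from MHCC97H cells, and 2 of them came from control cells (shCon) and 2 from cells that carried a short hairpin RNA against UBXN1 (shUBXN1). The protein UBXN1 has a ubiquitin-binding UBA domain and a UBX domain that binds the ATPase p97. No further treatment or time point is given in the labels, and the control hairpin is called shRFP in the study's methods. Nothing in the labels states that the replicates were separate cultures or that more than 1 hairpin was used, so p-values measure the spread between these libraries, which may be technical, and an effect of the hairpin other than through UBXN1 cannot be told apart from the knockdown. The deposited totals came to 27380508 and 24305174 for shCon and to 23433826 and 23373700 for shUBXN1. UBXN1 itself, as the check on the labels, was at 67.1 and 77.3 CPM (counts per library size, with TMM factors) in shCon and at 16.8 and 18.5 CPM in shUBXN1, a log2 fold change of -2.03 (standard error, SE, 0.0963, Benjamini-Hochberg adjusted p = 9.98e-10 by edgeR's quasi-likelihood F-test). Of the hepatocyte markers, ALB was at 18.0 and 17.2 CPM in shCon and at 4.20 and 4.78 CPM in shUBXN1, and APOA2 was at 0 in 3 of the 4 libraries, so defining hepatocyte transcripts were low in this line.

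Filamins are dimers that bind actin filaments with their N-terminal end and crosslink them into networks, and they also hold integrins and many signalling proteins through a long rod of immunoglobulin-like repeats. FLNA is found in most cells, whereas FLNC is known chiefly from skeletal and cardiac muscle. Plakins link keratins and other intermediate filaments to adhesion sites: plectin (PLEC) and dystonin (DST) to hemidesmosomes, desmoplakin (DSP) to desmosomes, and envoplakin (EVPL) and periplakin (PPL) to desmosomes and the cornified envelope of skin. DST and MACF1 also make spectraplakins, which bridge actin and microtubules. Epiplakin (EPPK1) consists almost wholly of plakin repeats, associates with keratin filaments, and is present in simple epithelia including that of the liver.

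In shUBXN1 the 2 low-level genes EPPK1 and FLNC stood at 12.2 and 5.83 times their control level. The most abundant filamin, FLNA, and the desmosomal linker DSP fell to 66.0% and 56.8% of control. EVPL and DST rose to 251% and 183% of control. PLEC, MACF1 and PPL did not pass the test. Thus, among the 7 genes listed by family, 4 were called at an adjusted p under 0.05, 2 of them higher and 2 lower, beside 56.2% of all genes tested that were called, 28.0% higher and 28.2% lower. Under the 2-fold rule with an unadjusted p under 0.05, EVPL was the 1 gene of the 7 called higher and none was called lower, beside 11.8% and 6.09% of all genes. With the GC trend removed EVPL was at 0.92 on the log2 scale, below the 2-fold rule, so this call ended. These shares of the family lie near those of all genes.

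**Figure D1:**
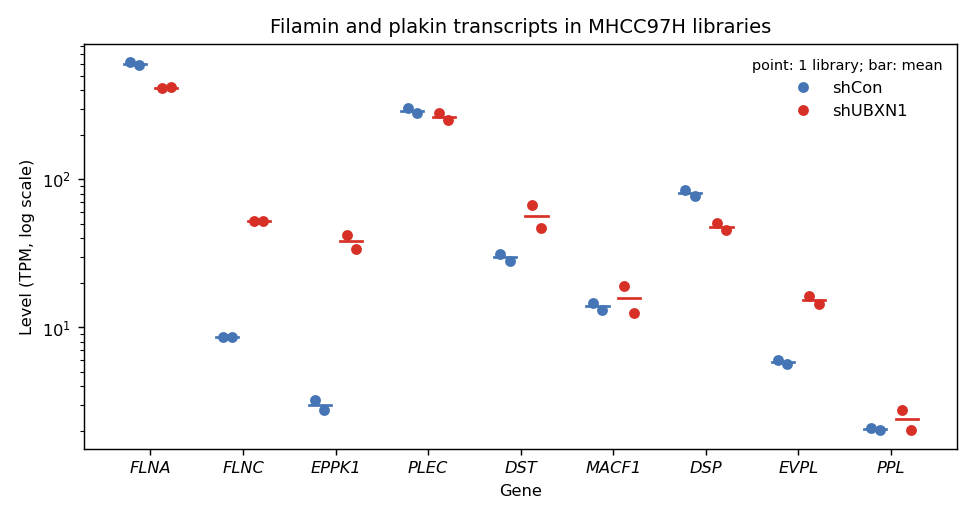
Level of each filamin and plakin gene in TPM (counts per length and library size, logarithmic axis), with 1 point per library, a bar at the mean of the 2 libraries, shCon in blue and shUBXN1 in red. EPPK1 and FLNC lie far above their control points in both shUBXN1 libraries, while FLNA and PLEC remain the highest of the family in every library.

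The stretches before the transcription start of FLNC and FLNA are shown first, because these filamins differed from control in opposite directions. They run 5′ to 3′ along the strand of the gene and are taken from RefSeq on GRCh38.p14. For FLNC the window is chr7:128830156-128830405 on the plus strand, and for FLNA it is chrX:154374635-154374884 on the minus strand. Capitals mark a TEAD motif in FLNC and a CArG box, the motif bound by serum response factor (SRF), in FLNA.

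FLNC: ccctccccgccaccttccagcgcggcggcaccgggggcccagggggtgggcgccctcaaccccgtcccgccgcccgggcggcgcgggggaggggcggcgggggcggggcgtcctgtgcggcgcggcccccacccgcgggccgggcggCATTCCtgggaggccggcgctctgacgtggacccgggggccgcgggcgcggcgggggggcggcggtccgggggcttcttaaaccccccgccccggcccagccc

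FLNA: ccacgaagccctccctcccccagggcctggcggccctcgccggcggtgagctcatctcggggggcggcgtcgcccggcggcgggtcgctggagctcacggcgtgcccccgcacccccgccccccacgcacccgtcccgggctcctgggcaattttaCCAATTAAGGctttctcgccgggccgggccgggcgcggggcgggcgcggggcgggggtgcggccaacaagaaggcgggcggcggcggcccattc

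Both windows are rich in G and C, at 85.6% in FLNC and 78.4% in FLNA. The TEAD motif (CATTCC or GGAATG on either strand) lies 98 to 103 bases before the start of FLNC, and 11.9% of 35116 RefSeq windows of this length hold it. The CArG box lies 85 to 94 bases before the start of FLNA, and 1.16% of windows hold one. FLNC has 7 GC boxes (GGGCGG on either strand) and FLNA has 5, where 42.6% of all windows hold at least 1. Neither window holds an AP-1 motif (TGANTCA), which 6.57% of windows hold. Of the other members, DST and MACF1 each have a TEAD motif in 1 of their 3 windows, and DSP has none of the TEAD, AP-1 and CArG motifs. A match describes letters in a window, and binding of a factor was not measured here.

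FLNC, the muscle filamin, was measured in RNA without transcripts of the muscle regulators MYOD1 and MYOG. FLNC (ENSG00000128591, chromosome 7, 128830406 to 128859274 on the plus strand of GRCh38, 48 exons in the canonical transcript) was covered by 1036 and 938 counts in the control libraries and by 5465 and 5583 counts after knockdown. This equalled 38.9 and 39.9 CPM in shCon and 221 and 238 CPM in shUBXN1. The shUBXN1 libraries lay close together and far above the controls, with means of 39.4 ± 0.757 (SD, n = 2) and 230 ± 12.5 CPM (SD, n = 2). The log2 fold change was 2.54, and 374 of the 16863 genes tested had a larger one. Of 12 markers of skeletal and cardiac muscle, 5 were at 0 in every library, those regulators among them, and the summed level of the 12 was 2.51 to 3.26 CPM in shCon and 4.87 to 6.34 CPM in shUBXN1. Of the 3 that were tested, MYH3 and MB were called higher and TTN lower, with at most 3.19 CPM in any library. Their part in the value of FLNC was not tested. A pseudogene, ENSG00000224163, shares the most sequence with FLNC, and 4.49% of the 31-base words of FLNC occur in another gene. The antisense gene FLNC-AS1 covers 0.735% of its exon bases.

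FLNA (ENSG00000196924, chromosome X, 154348524 to 154374634 on the minus strand, 48 exons), the main filamin of non-muscle cells, moved the other way. Its level was 2580.0 and 2567 CPM in shCon and 1624 and 1774 CPM in shUBXN1. Both shUBXN1 libraries were below both controls. FLNA thus fell by 0.60 on the log2 scale (SE 0.0900, 95% confidence interval -0.79 to -0.41, Benjamini-Hochberg adjusted p = 5.79e-05 by edgeR's quasi-likelihood F-test).

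Per length, FLNC made up a larger part of the FLNA and FLNC transcripts in shUBXN1. The summed TPM of FLNA and FLNC was 626 and 605 in shCon and 466 and 472 in shUBXN1. FLNC held 1.38% and 1.42% of that sum in shCon and 11.2% and 11.1% in shUBXN1, and FLNA held the rest. In bulk RNA, a change in the share of cells that express a gene cannot be told apart from a change in its RNA per cell.

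**Figure D2:**
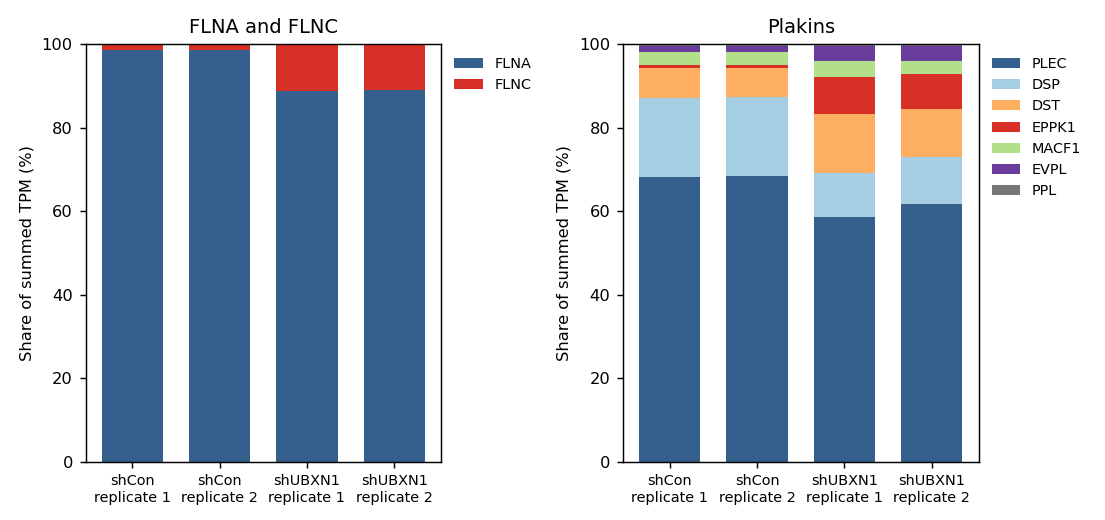
Share of the summed TPM (percent, axis from 0) that each gene held in each of the 4 libraries, for FLNA and FLNC on the left and the 7 plakins on the right. The red segments, FLNC and EPPK1, widen from 1.38% and 1.42% to 11.2% and 11.1% and from 0.728% and 0.676% to 8.85% and 8.40%.

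EPPK1 (ENSG00000261150) lies on the minus strand of chromosome 8, from 143857324 to 143878467, with 2 exons in its canonical transcript. It had 677 and 527 counts in shCon and 7710.1 and 6349.9 in shUBXN1. Its level was thus 25.4 and 22.4 CPM in the controls and 312 and 271 CPM after knockdown. Every shUBXN1 value was more than 10 times every shCon value. The log2 fold change was 3.60, and 122 genes had a larger one. The coding part of EPPK1 is made of near-identical repeats, and 53.1% of its 31-base words occur more than once within the gene. Other genes hold 3.99% of its words, PLEC most of all, so the absolute level of EPPK1 is uncertain where reads could be placed in several ways. PLEC lies 36.7 kb away on the same strand and was not higher in shUBXN1.

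PLEC (ENSG00000178209, chromosome 8, 143915153 to 143976734, minus strand, 32 exons) was the most abundant plakin. Its level was 2264 and 2164 CPM in shCon and 1965 and 1897 CPM in shUBXN1. The groups did not overlap, but the difference missed the threshold after adjustment over all genes. The log2 fold change was -0.20 (SE 0.0875, 95% confidence interval -0.38 to -0.0097, Benjamini-Hochberg adjusted p = 0.0688 by edgeR's quasi-likelihood F-test). In 8 of 13 other settings it passed, and once the trend of each library on GC content was removed it was -0.66 (Benjamini-Hochberg adjusted p = 8.18e-05 by edgeR's quasi-likelihood F-test). The size of the PLEC difference thus changed with the handling of GC content.

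DSP (ENSG00000096696, chromosome 6, 7541338 to 7586714, plus strand, 24 exons) anchors keratin to the desmosomal plaque. It was at 402 and 381 CPM in shCon and at 226 and 219 CPM in shUBXN1. The replicates of each group lay close together, and the groups stood apart. DSP fell by 0.82 on the log2 scale (SE 0.0750, 95% confidence interval -0.98 to -0.66, Benjamini-Hochberg adjusted p = 5.07e-07 by edgeR's quasi-likelihood F-test).

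EVPL (ENSG00000167880, chromosome 17, 76004502 to 76027306, minus strand, 22 exons), a low-level plakin in this line, moved in the opposite direction to DSP. Its level was 18.6 and 17.9 CPM in shCon and 46.8 and 44.9 CPM in shUBXN1. EVPL rose with a log2 fold change of 1.33 (SE 0.0891, 95% confidence interval 1.14 to 1.52, Benjamini-Hochberg adjusted p = 2.38e-08 by edgeR's quasi-likelihood F-test). Of the 31-base words of EVPL 4.41% occur in another gene. Its near copy EVPLL, which shares the most of them, had at most 0.128 CPM in any library. Periplakin, the partner of envoplakin in the cornified envelope, did not follow. PPL (ENSG00000118898, chromosome 16, 4882507 to 4960741, minus strand, 22 exons) was at 6.41 and 6.38 CPM in shCon and at 8.04 and 6.28 CPM in shUBXN1. The groups overlapped, and the log2 fold change was 0.16 (95% confidence interval -0.22 to 0.55, Benjamini-Hochberg adjusted p = 0.465 by edgeR's quasi-likelihood F-test). PPL had 147 to 199 counts per library.

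The spectraplakins DST and MACF1 differed between the 2 shUBXN1 libraries. DST (ENSG00000151914, chromosome 6, 56457987 to 56954830, minus strand, 104 exons) was at 378 and 353 CPM in shCon and at 761 and 575 CPM in shUBXN1. Both shUBXN1 libraries were above both controls, and DST rose with a log2 fold change of 0.87 (SE 0.110, 95% confidence interval 0.63 to 1.10, Benjamini-Hochberg adjusted p = 1.13e-05 by edgeR's quasi-likelihood F-test). Without shUBXN1 replicate 1 it was 0.65 and without shUBXN1 replicate 2 it was 1.04, and it passed the test in both cases. MACF1 (ENSG00000127603, chromosome 1, 39081316 to 39487177, plus strand, 101 exons) was at 175 and 161 CPM in shCon and at 214 and 152 CPM in shUBXN1. Here the groups overlapped, since 1 shUBXN1 library was above and 1 below both controls. The log2 fold change of MACF1 was 0.12 (95% confidence interval -0.13 to 0.38, Benjamini-Hochberg adjusted p = 0.407 by edgeR's quasi-likelihood F-test). It was -0.15 without shUBXN1 replicate 1 and 0.33 without shUBXN1 replicate 2, where it passed the test (Benjamini-Hochberg adjusted p = 8.51e-05 by edgeR's quasi-likelihood F-test). The first shUBXN1 library exceeded the second 1.32-fold for DST, 1.41-fold for MACF1 and 1.28-fold for PPL, against 0.915- to 1.15-fold for the other members.

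**Figure D3:**
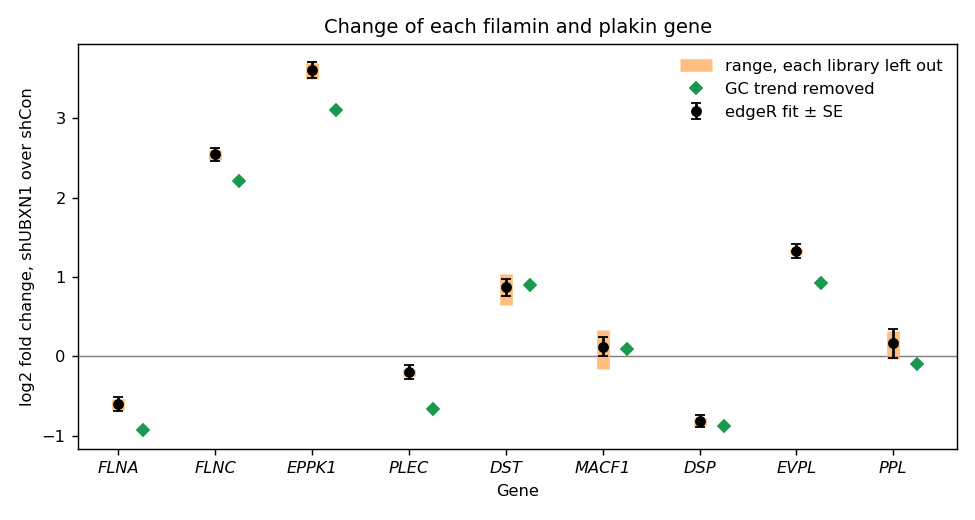
Log2 fold change of each gene in shUBXN1 over shCon (black point, with its standard error), the range over the 4 fits that each left out 1 library (orange bar), and the value with the GC trend of each library removed (green diamond). FLNC and EPPK1 are drawn without a test. The orange bars of MACF1 and PPL cross 0, and the green diamond of PLEC lies well below its black point.

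Per length, the order of the family was led in all libraries by FLNA (596 to 617 TPM in shCon and 414 to 420 TPM in shUBXN1) and PLEC (280.4 to 302 TPM and 250.4 to 279 TPM). In shCon they were followed by DSP, DST, MACF1, FLNC, EVPL, EPPK1 and PPL, and no neighbours in this order overlapped between replicates. In shUBXN1 the order below PLEC was DST, FLNC, DSP, EPPK1, MACF1, EVPL and PPL. There the ranges of DST and FLNC overlapped, as did those of MACF1 and EVPL. EPPK1 was at 3.23 and 2.77 TPM in shCon and at 42.2 and 34.1 TPM in shUBXN1, which carried it past EVPL and MACF1. FLNC was at 8.64 and 8.61 TPM in shCon and at 52.3 and 52.4 TPM in shUBXN1, above DSP at 50.5 and 45.4 TPM.

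The summed level of the plakins overlapped between the groups, while EPPK1, picked for its rise, held a larger share in shUBXN1. Shares of a sum depend on each other, so a larger share of EPPK1 lowers those of the others. The summed TPM of the 7 plakins was 444 and 410 in shCon and 477 and 406 in shUBXN1, so the groups overlapped. EPPK1 held 0.728% and 0.676% of that sum in shCon and 8.85% and 8.40% in shUBXN1. PLEC, at 68.1% and 68.4% in shCon, held 58.6% and 61.7% in shUBXN1. The DSP share went from 19.0% and 18.9% to 10.6% and 11.2%, and that of DST from 7.02% and 6.89% to 14.0% and 11.5%. EVPL held 1.37% and 1.38% in shCon and 3.42% and 3.57% in shUBXN1.

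The members are long, with 6223 bases or more in the deposited lengths, and several are rich in G and C. The GC content of the canonical transcript was 68.1% in EPPK1, 66.8% in PLEC, 64.9% in EVPL and 62.3% in both FLNA and FLNC, against 59.5% in PPL, 47.7% in DSP, 46.0% in MACF1 and 41.6% in DST. Genes at least as long with a GC content above 60% numbered 136, and their log2 fold changes had a median of 0.34, with 48.5% called higher and 19.9% lower. After removal of the GC trend, EPPK1 was at 3.10, FLNC at 2.21, EVPL at 0.92 and FLNA at -0.93 on the log2 scale, all in the direction of the values above. The part of GC content in these values was not tested beyond this.

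Genes beside FLNC and EPPK1 were examined to describe whether the differences extended along the chromosome. Of the 10 tested genes nearest to FLNC, 5 on each side, 5 were called higher and 1 lower, with a median log2 fold change of 0.74, beside 28.0% higher, 28.2% lower and a median of 0.016 over all genes tested. CCDC136 ends 8.27 kb before FLNC on the same strand, and it rose from 5.02 to 45.0 CPM on average (log2 fold change 3.16, Benjamini-Hochberg adjusted p = 6.08e-10 by edgeR's quasi-likelihood F-test). CICP14, ATP6V1FNB and IRF5, a transcription factor gene of the interferon system, had log2 fold changes of 1.34, 1.34 and 1.29 and also passed both thresholds. ATP6V1FNB was low, at 0.511 CPM in shCon and 1.31 CPM in shUBXN1 on average. The adjacent genes ATP6V1F and KCP, on the other side of FLNC, had log2 fold changes of 0.04 and 0.75, the first without passing the test. Around EPPK1 3 of 10 genes were called higher and 2 lower, with a median of 0.22. SPATC1 and NRBP2 rose by log2 fold changes of 2.01 and 1.33, and ENSG00000287222 fell from 3.86 to 1.91 CPM on average. SPATC1 was low, at 0.521 CPM in shCon and 2.17 CPM in shUBXN1 on average. None of the 10 came near the value of EPPK1.

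**Figure D4:**
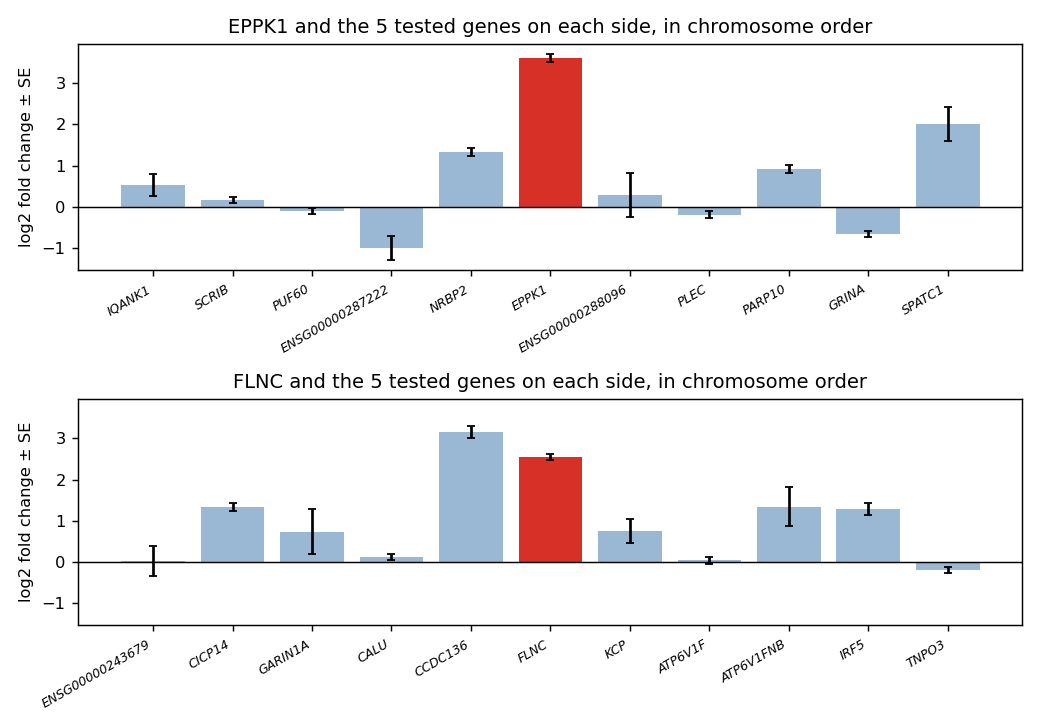
Log2 fold change with standard error for EPPK1 (upper panel) and FLNC (lower panel), drawn in red, and the 5 tested genes on each side in chromosome order. Only CCDC136, next to FLNC, reaches a bar like that of the member itself (3.16 against 2.54).

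The genes whose profile over the 4 libraries was most like that of FLNC were ANPEP, S100A2 and TNNT1, with Euclidean distances of 0.0487, 0.0809 and 0.0841 between centred log2 CPM profiles, among 11866 genes. ANPEP, which encodes a cell surface aminopeptidase, was at 37.4 and 37.2 CPM in shCon and at 209 and 219 CPM in shUBXN1, almost the levels of FLNC. TNNT1, the troponin T of slow skeletal muscle and not on the muscle marker list, was at 11.3 and 10.7 CPM in shCon and at 61.1 and 67.8 CPM in shUBXN1. For EPPK1 the nearest were MCAM (0.0836), CD7 (0.118) and GCGR (0.328). MCAM, a cell adhesion molecule, was at 2.29 and 1.96 CPM in shCon and at 28.0 and 26.2 CPM in shUBXN1. With 4 libraries in 2 groups, likeness here reflects little more than a similar fold change.

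Genes that work with the filamins moved in both directions. Of 16 listed filamin partners 10 were tested, 3 were called higher, 5 lower and 2 in neither direction. Among all genes tested, 28.0% were called higher and 28.2% lower. The median log2 fold change of the partners was -0.17 beside 0.016 for all genes. ITGB3, an integrin β subunit whose tail binds filamin, was at 1.17 and 1.19 CPM in shCon and at 10.97 and 9.78 CPM in shUBXN1 (log2 fold change 3.14). HSPB8, a small heat shock protein that acts with BAG3 on damaged filamin, rose with a log2 fold change of 1.35, whereas BAG3 itself fell by 0.68 on the log2 scale. MRTFA, a coactivator of SRF that binds FLNA, fell by 0.76, and FILIP1L fell by 1.32. The filamin regulators RFLNA and RFLNB had at most 0.0854 CPM.

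Among 13 tested of 15 other actin crosslinkers and anchors, 5 were called higher, 5 lower and 3 in neither direction (median 0.13). The shares over all genes tested were 28.0% higher and 28.2% lower, for this list and the next. TLN2, the talin paralog that is abundant in muscle and brain, was at 4.25 and 4.30 CPM in shCon and at 19.4 and 18.7 CPM in shUBXN1, a log2 fold change of 2.15. FSCN1, the filopodial bundler fascin, had a log2 fold change of 0.31, which turned to -0.097 after removal of the GC trend and no longer passed. The plastin genes LCP1 and PLS1 fell by 1.72 and 0.83 on the log2 scale. Of 14 tested SRF and YAP targets out of 17 listed, 5 were called higher, 5 lower and 4 in neither direction (median -0.089). SRF itself fell by 1.02 on the log2 scale, and the actin gene ACTB fell by 1.05, while the smooth muscle gene TAGLN fell by 2.36. ACTG1, another actin gene of the list, did not pass the test. It was at 2174 and 2240 CPM in shCon and at 1937 and 2248 CPM in shUBXN1. CCN1 and ANKRD1, best known as YAP targets, rose with log2 fold changes of 1.39 and 1.34, and ANKRD1 no longer passed in 3 of the 13 other settings.

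All 7 tested desmosome genes out of 12 listed passed the test, 3 higher and 4 lower, with a median log2 fold change of -0.23. Of all genes tested, 56.2% were called, 28.0% higher and 28.2% lower. The desmosomal cadherins DSG2 and DSC2, which span the membrane, rose with log2 fold changes of 0.76 and 0.81. DSG2 was at 285 and 264 CPM in shCon and at 460.2 and 466 CPM in shUBXN1. The plaque proteins that join the cadherins to desmoplakin went the other way, as DSP did. PKP2 fell by 1.33, PKP3 by 0.74 and JUP, plakoglobin, by 0.71 on the log2 scale. PERP, which also spans the membrane, was called lower too, with a log2 fold change of -0.23. It no longer passed with the GC trend removed (-0.20). The call of PERP was also lost without shCon replicate 1 (-0.21) or without shCon replicate 2 (-0.27).

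The hemidesmosome list, whose members PLEC and DST connect to keratin, was split as well. Its calls were 3 higher, 3 lower and 1 in neither direction (median -0.05), beside 28.0% higher and 28.2% lower over all genes tested. The chains of the hemidesmosomal laminin did not move together. LAMB3 rose with a log2 fold change of 0.86, while LAMA3 fell from 130 and 119 CPM in shCon to 35.8 and 31.3 CPM in shUBXN1 (log2 fold change -1.89, Benjamini-Hochberg adjusted p = 8.23e-10 by edgeR's quasi-likelihood F-test). COL17A1, which binds plectin and dystonin at the membrane, fell by 0.64, and ITGB4 had 0.24, which turned to -0.13 after removal of the GC trend.

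The intermediate filaments to which plakins bind were counted over 15 tested of 23 listed genes. Here 5 were called higher, 6 lower and 4 in neither direction (median -0.27), beside 28.0% higher and 28.2% lower over all genes tested. KRT8 and KRT18, the keratin pair of simple epithelia, had log2 fold changes of -0.44 and 0.31. KRT8 was at 3354 and 3467 CPM in shCon and at 2329 and 2715 CPM in shUBXN1, and KRT18 at 895 and 949 CPM in shCon and at 1045 and 1247 CPM in shUBXN1. The call of KRT18 was lost with the GC trend removed (log2 fold change 0.087) and without either shCon library. KRT7 rose with a log2 fold change of 1.15 and KRT19 fell by 1.24, so the biliary keratins went apart. SYNM, a large intermediate filament protein, rose with 1.60, and the lamin gene LMNB2 fell by 1.21. VIM was low, at 11.1 to 13.4 CPM over the 4 libraries, and did not pass the test.

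The cornified envelope, where envoplakin and periplakin are known from skin, was hardly expressed. Of 12 listed genes 4 were tested and 7 were at 0 in every library. TGM1 rose with a log2 fold change of 0.92 but stayed at or below 2.46 CPM and did not pass in 6 of the 13 other settings. CSTA and TGM3 fell by 2.42 and 1.73. Keratinocyte markers summed to 28.1 to 28.5 CPM in shCon and 25.5 to 30.9 CPM in shUBXN1, most of it KRT10 at 22.4 to 27.1 CPM, and KRT1, LORICRIN and IVL were at 0 in all libraries. FLG, filaggrin, was at 3.19 and 2.20 CPM in shCon and at 1.28 and 1.32 CPM in shUBXN1 and was called lower. The part of these genes in the value of EVPL was not tested.

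All 15 genes for microtubule tips and partners of the spectraplakins were tested. Of these, 3 were called higher, 5 lower and 7 in neither direction (median -0.16), beside 28.0% higher and 28.2% lower over all genes tested. MAPRE3, which encodes the end-binding protein EB3, and CAMSAP2, a binder of microtubule minus ends, rose with log2 fold changes of 0.58 and 0.49. GAS2 and GAS2L3, which share the microtubule-binding GAR domain with DST and MACF1, fell by 1.37 and 0.74. In the LINC complex of the nuclear envelope, 3 of 6 genes were called higher and 1 lower, beside the same shares of all genes. SUN1 rose with 0.86 and SYNE3 with 0.37, whereas SYNE1 fell by 0.998. SYNE3 no longer passed in 6 of the 13 other settings. The calmin gene CLMN, which has an actin-binding domain like that of plakins, rose with 0.43.

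**Figure D5:**
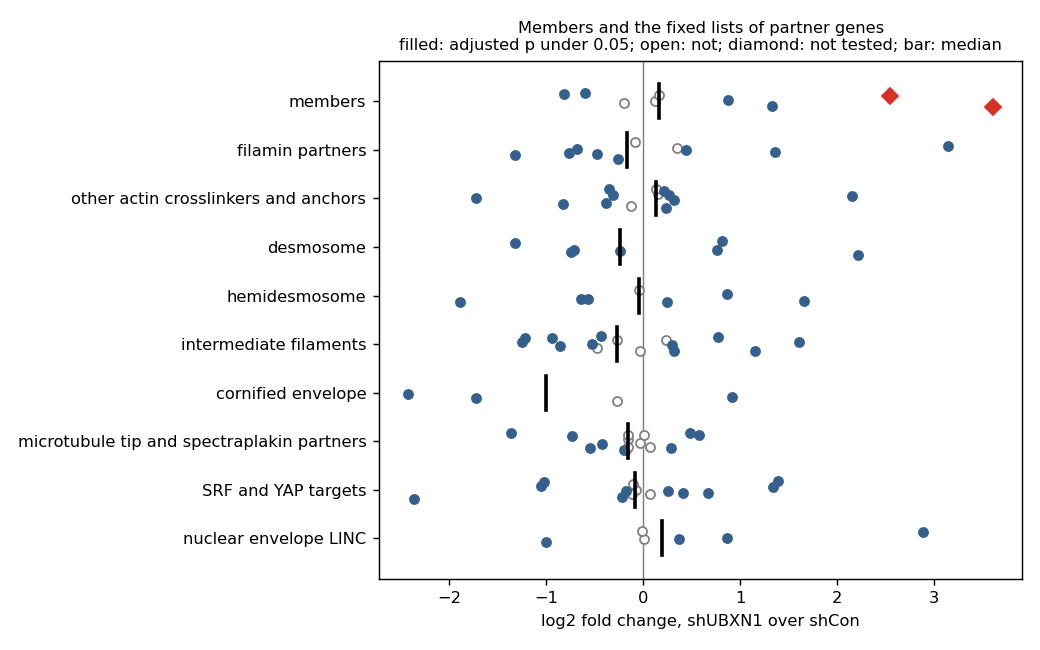
Log2 fold change in shUBXN1 over shCon for every tested member and every tested gene of 9 partner lists, with 1 point per gene, filled where the adjusted p was under 0.05, open where it was not, red diamonds for the untested FLNC and EPPK1, and a black bar at each median. Apart from the cornified envelope, which rests on 4 genes, the medians lie between -0.27 and 0.19.

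Markers of other cell types were low or mixed. Endothelial markers summed to 48.5 to 50.1 CPM in shCon and 92.7 to 99.9 CPM in shUBXN1, of which KDR and PECAM1 made up nearly all, while CDH5 was at 0 in both shUBXN1 libraries. Fibroblast and stellate markers summed to 33.3 to 33.8 CPM in shCon and 17.3 to 19.8 CPM in shUBXN1, mostly LUM, whereas COL1A1 of the same list was called higher, at 0.375 and 0.170 CPM in shCon and 2.34 and 2.52 CPM in shUBXN1. Leukocyte markers summed to 8.51 to 9.71 CPM in shCon and 7.05 to 7.07 CPM in shUBXN1. Of 12 tested hepatocyte markers 9 were called lower and 1 higher, beside 28.2% lower and 28.0% higher over all genes tested. The hepatocyte markers summed to 277 to 284 CPM in shCon and 125 to 128 CPM in shUBXN1. The part of these genes in the values of the filamins and plakins was not tested.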

How the data were processed

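RNA-seq of 4 MHCC97H libraries was used, 2 per group, with groups and replicate numbers from the sample titles. The authors deposited expected counts per gene (61541 Ensembl IDs, of which 99.7% matched a GENCODE symbol), not normalized, with a gene length. The labels name GRCh37, HISAT2 2.0.4, StringTie 1.3.0 and a VAHTS kit, whereas the methods name GRCh38, TPM, limma and a TruSeq kit; the counting tool, the annotation release and the use of strand are not given in the sources used here. Gene positions are those of GENCODE on GRCh38.

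Starting from these, counts were rounded to whole numbers, filtered with filterByExpr, scaled by TMM, and tested by the quasi-likelihood functions of edgeR 4.0.16 (glmQLFit, glmQLFTest; R 4.3.3), with group as the only term and Benjamini-Hochberg adjustment over 16863 genes. The biological coefficient of variation was 0.0711. CPM used TMM-scaled library sizes, and TPM was computed from the counts and the deposited lengths. A gene was called at an adjusted p under 0.05, and separately at a fold change of 2 with an unadjusted p under 0.05. Replicates differed by more than sampling noise (chi-square per degree of freedom 3.65 in shCon and 7.77 in shUBXN1). The fit was tested on simulated data in which far fewer genes changed than were called here, and no result rests on that test. Alternatives were DESeq2 1.42.0, total count scaling, limma 3.58.1 (voom, and log2(TPM + 1)), no filter, at least 10 counts in every library, a replicate block, removal of each library's GC trend (loess, span 0.5), both together, and each library left out.

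The members and the 10 partner lists were chosen with earlier results of these data known. Genes named from a list were its 2 largest rises and 2 largest falls past an adjusted p of 0.05 with a mean log2 CPM above 0. Also named were neighbours past both call rules and the 3 nearest profiles (mean log2 CPM above 2). BAG3, JUP, PERP, SRF, ACTG1, ITGB4, KRT8, KRT18, VIM, RFLNA, RFLNB, SYNE2, ATP6V1F and KCP were named after their values were seen. RefSeq windows were matched for 5 members. Some genes that the rule would name are not reported here.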

Additional observations from a re-analysis of the deposited data

How the results depend on the processing

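Over 13 alternatives, FLNA, DSP, DST and EVPL kept their direction and passed the test each time, and between 4 and 6 of the 7 members listed by family were called. PLEC passed at -0.20 with DESeq2, limma-voom, no filter and the replicate block (adjusted p = 0.00304 and 0.0478 for the first and last, from DESeq2 and edgeR), and at -0.66 with the GC trend removed, with or without the block; it ranged from -0.25 to -0.16 with each library left out. MACF1 ranged from -0.15 to 0.33 and PPL from -0.030 to 0.31 with each library left out, and PPL was at -0.097 with the GC trend removed and -0.10 with the block as well. FLNC was at 2.63 with total count scaling, 2.21 with the GC trend removed and 2.21 with the block as well. EPPK1 was at 3.29 with limma on log2(TPM + 1), 3.10 with the GC trend removed, 3.10 with the block as well, and 3.50 to 3.70 with each library left out.

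Over the partner lists, 32 genes were called higher, against 21 with the GC trend removed, with or without the block, and 20 to 35 with each library left out. FSCN1 (-0.097 and, with the block, -0.099) and ITGB4 (-0.13 and -0.13) reversed, and SYNE2 ranged from -0.46 to 0.35 with each library left out. Over all genes, 2-fold calls were 1997 higher and 1027 lower, against 1028 and 524 with limma on log2(TPM + 1), and 1321 were higher with at least 10 counts in every library, which tests fewer genes. Of the 2-fold calls 66.0% were higher, 72.6% with total count scaling, which moved the median of all genes from 0.016 to 0.10, and 55.7% with the GC trend removed. The cause of these differences was not tested.

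The deviations of same-numbered libraries from their group means had a correlation of 0.0393 across genes. From 2 pairs alone it cannot be told whether the replicate numbers paired the libraries. The block brought PLEC past the threshold and changed no other member's call. With 2 libraries per group, the spread of a single gene is known mainly through the other genes, and where a library is left out the lone one of its group is assumed to vary like the rest.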
